A study of Mus musculus with 24 samples.

Results

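The *MHC class I* presentation genes and *Nlrc5* were followed by name in single-nucleus RNA sequencing data of mouse brain. The group held 10 of the 32288 genes in the count tables: the heavy chain genes *H2-K1*, *H2-D1*, *H2-Q4*, *H2-Q7* and *H2-T23*, the light chain gene *B2m*, the peptide transport and loading genes *Tap1*, *Tap2* and *Tapbp*, and the regulator *Nlrc5*. They were selected from earlier results of these libraries, so their levels and fold changes are given as a description without p-values. Where a member is said to be called, its adjusted p was under 0.05, which is part of that description. Tests are reported for other genes of the pathway, which were also chosen with earlier results of these data known.

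The study compared 6 *Pdgfb* ret/ret mice (mutant, 6 females) with 6 *Pdgfb* ret/wt mice (control, 5 females and 1 male, control 6). Both groups are of the strain B6.Pdgfbtm3Cbet, and every control carries 1 ret allele. The ret allele encodes PDGF-B without its matrix retention motif in every cell that makes it, so the mutation is not restricted to a cell type. Mutants have fewer pericytes and form vascular calcifications in deep brain regions but not in the cortex. Ages ran from 4 months 7 days to 5 months 18 days in both groups, with mice 1 to 3 of each genotype older than mice 4 to 6. Each mouse, perfused with PBS and heparin, gave 1 library of deep brain (calcification-prone: pallidum, thalamus and hypothalamus, midbrain, pons and hindbrain) and 1 of cortex (calcification-free: cerebral cortex with hippocampus), 24 libraries in all. The 5′ counts do not test for the shortened *Pdgfb* coding sequence, so they do not check the genotype labels.

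Deep brain libraries held 64736053 to 96459036 unique molecular identifiers (UMIs, each 1 captured RNA molecule) and cortical libraries 23625232 to 95605387. After filtering, 64604 mutant and 60354 control nuclei remained in deep brain, and 47714 and 32253 in cortex. Cortical libraries stood apart in quality: 42284 cortical nuclei stayed unnamed, 31379 of them for low depth, against 7102 unnamed nuclei in deep brain. Between any 2 of the 24 libraries, 8 to 220 cell barcodes were shared, at most 1.99% of the smaller library. Clusters were named from fixed markers, for example microglia-like from *P2ry12*, *Csf1r* and *Cx3cr1*, and are called microglia, endothelial cells and so on from here. Levels are CPM, the UMIs of a gene scaled to the UMI total of its class in that library, with the mouse as the replicate. They depend on transcript length and capture, so genes are compared between classes and groups and not with each other.

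MHC class I molecules display peptides from inside the cell to CD8 T cells and natural killer cells. A heavy chain pairs with β2-microglobulin, the TAP1-TAP2 transporter brings peptides into the endoplasmic reticulum, and tapasin, the product of *Tapbp*, holds the empty molecule at the transporter. NLRC5 is the transactivator of class I genes: it has no DNA-binding domain of its own and acts through factors bound to the X and Y boxes of class I promoters. Interferons raise the expression of *Nlrc5* and of most class I genes, and in healthy brain neurons express class I weakly compared with endothelial cells and microglia.

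All heavy chain and loading genes lie on chromosome 17 (GRCm38, GENCODE annotation): *H2-K1* at chr17:33996017-34000347 on the minus strand, *H2-D1* at chr17:35262730-35267499, *H2-Q4* at chr17:35379617-35385290 and *H2-Q7* at chr17:35439155-35443773 on the plus strand, *H2-T23* at chr17:36029773-36032855 on the minus strand, and *Tapbp* at chr17:33915899-33929292, *Tap1* at chr17:34187553-34197225 and *Tap2* at chr17:34203527-34216321 on the plus strand. *B2m* lies at chr2:122147686-122153083 and *Nlrc5* at chr8:94434356-94527272, a gene of 92917 bases. The promoter stretches below are the 140 bases before the RefSeq start site (RefSeq, GRCm38.p6), printed on the gene's strand, because they hold the boxes through which NLRC5 acts. Capitals mark the letters TGACG of the X2 box, ATTGG or CCAAT of the Y box, and GAAANNGAA, a form of the interferon-stimulated response element, each searched on both strands.
*H2-K1*, chr17:34000348-34000487, minus strand: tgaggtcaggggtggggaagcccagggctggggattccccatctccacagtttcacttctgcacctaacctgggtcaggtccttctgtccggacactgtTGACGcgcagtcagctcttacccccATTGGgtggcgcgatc
*H2-D1*, chr17:35262954-35263093, plus strand: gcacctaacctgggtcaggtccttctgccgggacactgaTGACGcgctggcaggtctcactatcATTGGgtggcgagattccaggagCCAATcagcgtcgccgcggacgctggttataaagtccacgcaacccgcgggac
*H2-Q4*, chr17:35379477-35379616, plus strand: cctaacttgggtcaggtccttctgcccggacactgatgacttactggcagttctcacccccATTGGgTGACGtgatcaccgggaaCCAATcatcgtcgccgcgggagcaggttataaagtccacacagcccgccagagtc
*H2-Q7*, chr17:35439015-35439154, plus strand: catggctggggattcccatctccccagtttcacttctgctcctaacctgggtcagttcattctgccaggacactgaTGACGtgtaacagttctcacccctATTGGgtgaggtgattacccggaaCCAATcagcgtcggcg
*B2m*, chr2:122147547-122147686, plus strand: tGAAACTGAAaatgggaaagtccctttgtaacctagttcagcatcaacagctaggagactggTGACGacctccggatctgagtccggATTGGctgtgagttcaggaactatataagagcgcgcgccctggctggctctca

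The promoters of *H2-K1*, *H2-D1*, *H2-Q7* and *B2m* held TGACG followed 19 or 20 bases later by ATTGG, a spacing chosen after the sequences were seen. Of all 32851 promoters in the RefSeq table, 88 (0.268%) held this pair at 18 to 22 bases on either strand. In *H2-Q4* the same letters stood in the other order, with ATTGG at base -79 and TGACG at base -73 from the start. Its stretch also holds tgact ahead of this ATTGG, which differs from TGACG in its last base. The marked TGACG is therefore not shown to be the X2 box of *H2-Q4*. GAAANNGAA was found in *B2m* at base -139 and, on the opposite strand, in *H2-T23* at base -123, and in 8.56% of all promoters within 300 bases. Other forms of the element were not searched, so a promoter without this string is not shown to lack it. The stretches of *H2-K1* and *H2-Q7* both hold tttcacttc, which the string does not match. The single motifs were common, with TGACG in 20.8% and CCAAT in 37.4% of promoters, and the gamma-activated site TTCNNNGAA in 8.30%. *Tap2* and *Nlrc5* were not matched in this table. These letters are a description and do not show that a factor binds.

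Class I genes share sequence, so reads can be split between copies. Of all 90-base windows of its transcripts, *H2-Q7* shared 10.5% with other genes, *H2-D1* 3.98%, *H2-T23* 3.85%, *H2-Q4* 3.43% and *H2-K1* 1.54%, and *B2m*, *Tap1*, *Tap2* and *Nlrc5* shared 0. *H2-Q7* values are therefore the least certain. *B2m* lies within *Patl2* and *H2-T23* within an antisense gene, *A930015D03Rik*, both on the opposite strand. *Tapbp* overlaps the protein-coding *Zbtb22* on the same strand over 3422 bases, where reads of the 2 genes cannot be told apart.

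Counted over all kept nuclei of a library, with no cell classes, *Nlrc5* was higher in every mutant than in every control in both regions. In counts over whole libraries the same held for 1.04% of genes in deep brain and 0.621% in cortex. These shares are among genes with at least 10 UMIs in at least 6 libraries. In deep brain the level of *Nlrc5* had a lowest, median and highest value of 2.27, 2.81 and 4.31 CPM in mutants and 0.892, 1.28 and 1.51 CPM in controls, from 1389 and 577 UMIs in all. In cortex the values were 2.53, 3.16 and 5.42 CPM against 0.417, 0.761 and 1.44 CPM, from 854 and 170 UMIs. Fewer cells of a type and less RNA per cell cannot be told apart in such sums. *H2-K1* did not overlap either in deep brain, at 13.3, 15.7 and 25.1 CPM in mutants and 7.92, 9.25 and 12.5 CPM in controls. *H2-Q4* and *Tap1* did not overlap in either region, and in deep brain *H2-Q4* was at 1.90, 2.30 and 3.85 CPM against 0.918, 1.02 and 1.32 CPM, and *Tap1* at 1.95, 2.45 and 3.33 CPM against 1.37, 1.605 and 1.82 CPM. In cortex the lowest mutant value of *Tap1*, 1.668 CPM, was barely above the highest control value, 1.665 CPM. *H2-Q7* did not overlap in either region, at 1.06, 1.61 and 2.92 CPM against 0.246, 0.681 and 0.881 CPM in deep brain and 1.13, 2.23 and 3.51 CPM against 0.0823, 0.265 and 0.761 CPM in cortex. In cortex *H2-K1* overlapped, at 10.1, 20.8 and 28.2 CPM against 6.01, 9.02 and 12.7 CPM. *H2-D1* and *B2m* overlapped between genotypes in deep brain, with medians of 29.98 and 22.4 CPM and of 11.3 and 8.21 CPM.

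These sums mix classes that carry very different shares of each gene. Neurons held 55.8% of the *H2-D1* UMIs of all kept deep brain nuclei, 58.1% of *H2-T23* and 62.2% of *Tapbp*, but 13.9% of *H2-K1* and 16.5% of *Nlrc5*. T cells, with 126 deep brain nuclei, held 22.5% of *H2-Q7*. Microglia held 12.2% of *Nlrc5* in deep brain, and oligodendrocytes 22.9% of it in cortex. The microglial share leaves out microglial nuclei removed for a UMI of *Mrc1*, *Mbp*, *Aqp4* or *Rbfox3*.

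In control deep brain, T cells had the highest mean level (CPM) of all 10 genes. For *B2m*, *H2-T23*, *Nlrc5*, *Tap1* and *Tapbp* they did not differ from the next class beyond their spread. The T cell means rest on 4 mice and few UMIs, such as 8 of *Tap2* and 9 of *Tap1*. Neurons had the lowest mean CPM of *H2-K1*, *H2-Q4*, *B2m* and *Nlrc5*. Control neuronal nuclei were deeper than oligodendrocyte nuclei, at library medians of 9293 to 12296 against 2352 to 2996.5 UMIs. An order of CPM is therefore not an order of RNA per nucleus. *H2-K1* was 2124 CPM ± 673 (SD, n = 4 mice) in T cells, 573 ± 183 in endothelial cells (n = 6) and 552 ± 121 in macrophages, and the endothelial and macrophage levels did not differ beyond their spread. It then dropped to 119 ± 21.5 CPM in microglia, 53.1 ± 6.24 in astrocytes, 14.4 ± 1.72 in oligodendrocytes and 1.90 ± 0.388 in neurons. Microglia and fibroblasts, at 100 ± 40.4 CPM, did not differ beyond their spread, whereas oligodendrocytes and neurons did. *H2-D1* had the same leading classes, with 1136 ± 61.6 CPM in T cells, 622 ± 42.2 in endothelial cells and 573 ± 177 in macrophages. At the lower end, astrocytes with 20.2 ± 3.46 CPM, neurons with 19.8 ± 3.87 and oligodendrocytes with 16.9 ± 3.48 did not differ beyond their spread.

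*Nlrc5* followed a similar order with wider spread. Its control level was 568 ± 401 CPM in T cells, 91.4 ± 90.6 in macrophages, 35.3 ± 13.2 in endothelial cells, 19.0 ± 14.2 in microglia, 3.89 ± 1.08 in astrocytes, 1.59 ± 0.658 in oligodendrocytes and 0.407 ± 0.105 in neurons. In the full order of 12 classes only the last neighbours, oligodendrocytes and neurons, differed beyond their spread. That gap is in CPM. An *Nlrc5* UMI was held by 0.315 to 0.635% of control neuronal nuclei per library and 0.189 to 0.491% of control oligodendrocyte nuclei. *B2m* was nearly equal in T cells and endothelial cells, at 299 ± 203 and 297 ± 49.9 CPM, and was 118 ± 41.0 CPM in microglia and 4.94 ± 0.320 CPM in neurons. *H2-Q7* had 841 ± 155 CPM in T cells and 56.2 ± 40.5 CPM in endothelial cells. *Tapbp* ran from 144 ± 111 CPM in T cells and 138 ± 23.6 in endothelial cells to 9.31 ± 2.43 CPM in oligodendrocyte precursor cells (OPC).

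**Figure D1:**
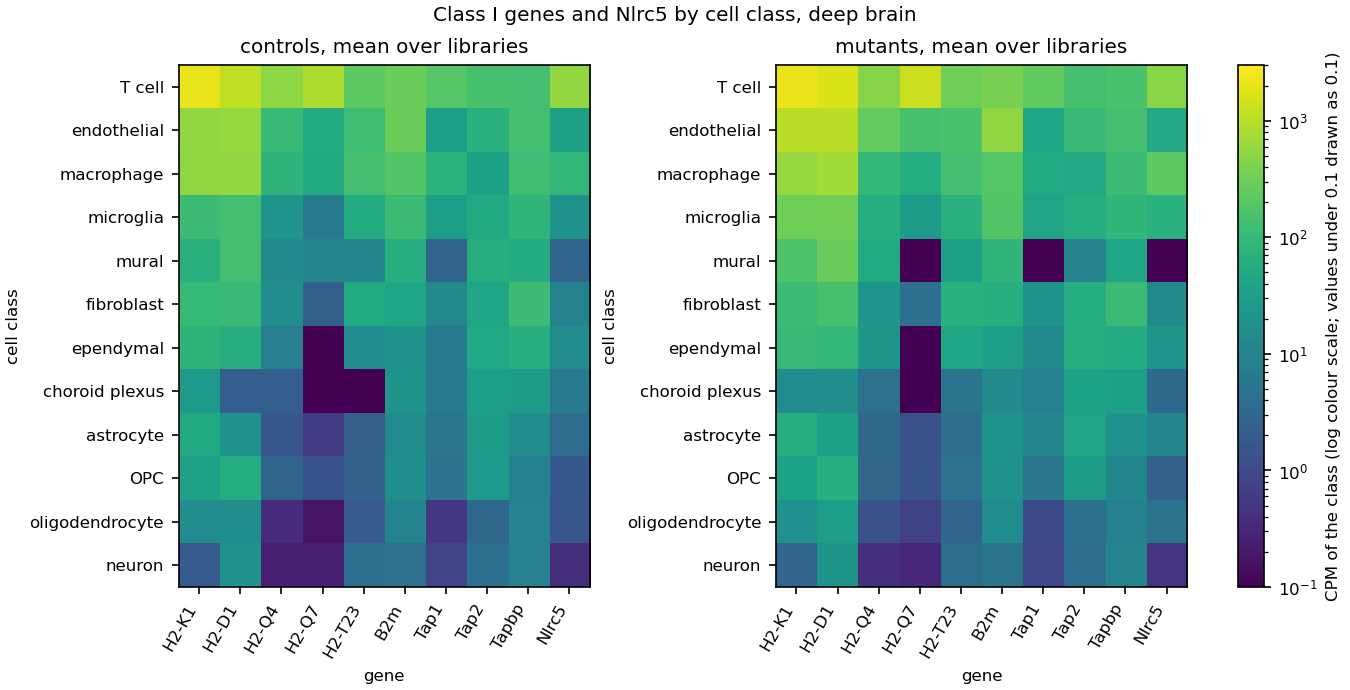
Mean level of each gene (columns) in each deep brain cell class (rows) in controls and mutants, as CPM on a log colour scale, with means under 0.1 CPM drawn as 0.1. For *H2-K1* the control means run from 2124 CPM in T cells at the top to 1.90 CPM in neurons at the bottom.

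Microglia of the deep brain held 1292 mutant and 985 control nuclei after removal of nuclei with a UMI of *Mrc1*, *Mbp*, *Aqp4* or *Rbfox3*. In these cells *H2-K1*, *H2-D1* and *Nlrc5* were higher in every mutant than in every control. *H2-K1*, which encodes a classical heavy chain, had a lowest, median and highest level of 206, 278 and 570 CPM in mutants and 97.7, 113 and 151 CPM in controls, a log2 fold change of 1.38 ± 0.19 (SE). *H2-D1*, the other classical heavy chain, was at 212, 268 and 617 CPM in mutants and 112, 134 and 171 CPM in controls, a log2 fold change of 1.22 ± 0.19. Mutant 3 had the highest value of both genes, and the remaining mutants still lay above all controls.

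*Nlrc5* was at 45.2, 69.9 and 105 CPM in mutants and 0, 15.9 and 39.4 CPM in controls, from 196 and 44 UMIs. Its log2 fold change was 1.87 ± 0.32, and its lowest mutant exceeded its highest control. Control 1 had no *Nlrc5* UMI, a count that allows up to 7.33 CPM. *H2-Q4*, a class Ib heavy chain, was at 35.1, 59.8 and 85.3 CPM against 6.58, 17.8 and 38.1 CPM, a log2 fold change of 1.45 ± 0.27, with 5 of 6 mutants above every control. *H2-Q7* was at 10.3, 26.0 and 63.4 CPM against 2.31, 5.45 and 12.7 CPM, also with 5 of 6 mutants above every control, but its 80 and 16 UMIs did not pass the count filter.

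The light chain and loading genes differed less. *B2m* was at 163, 185 and 232 CPM in mutants and 76.2, 111 and 191 CPM in controls, a log2 fold change of 0.71 ± 0.16, with overlap between groups. It was not called, but was called with DESeq2 (0.71), with no filter beyond 1 UMI (0.73), with contaminants kept (0.69), with mice blocked by number (0.72) or matched age (0.73), and without mutant 4 (0.76) or control 3 (0.88). *Tap1* overlapped at 30.04, 37.2 and 57.1 CPM against 14.7, 32.7 and 38.1 CPM (0.43 ± 0.24). The log2 fold changes of *H2-T23*, *Tap2* and *Tapbp* were 0.26 ± 0.20, 0.23 ± 0.18 and 0.03 ± 0.15. Of 9 genes that passed the filter, 4 had an adjusted p under 0.05 in the genotype fit (*H2-K1*, *H2-D1*, *H2-Q4* and *Nlrc5*), where 0.137% of all microglial genes tested were called higher in mutants and 0.233% had every mutant above every control. Since the genes were chosen with these libraries known, nothing is read from these counts.

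The difference was present in both age groups. In mice 1 to 3 the mutant mean was 3.04 times the control mean for *H2-K1*, 2.69 times for *H2-D1* and 4.04 times for *Nlrc5*. In mice 4 to 6 the ratios were 2.14, 1.92 and 3.47. Markers of other cells were low in these microglial sums: the 8 T cell markers summed to 0 to 4.38 CPM in mutants and 0 to 3.00 CPM in controls, with *Cd3e*, *Cd3g* and *Trbc2* among those at 0. The 6 macrophage markers summed to 0 to 43.8 and 0 to 19.4 CPM, with *Cd163*, *Lyve1* and *Pf4* at 0 and *Mrc1* at 0 by the removal above. The microglial markers themselves summed to 10773 to 15869 CPM in mutants and 12634 to 16514 CPM in controls. The part of these markers in the difference was not tested.

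**Figure D2:**
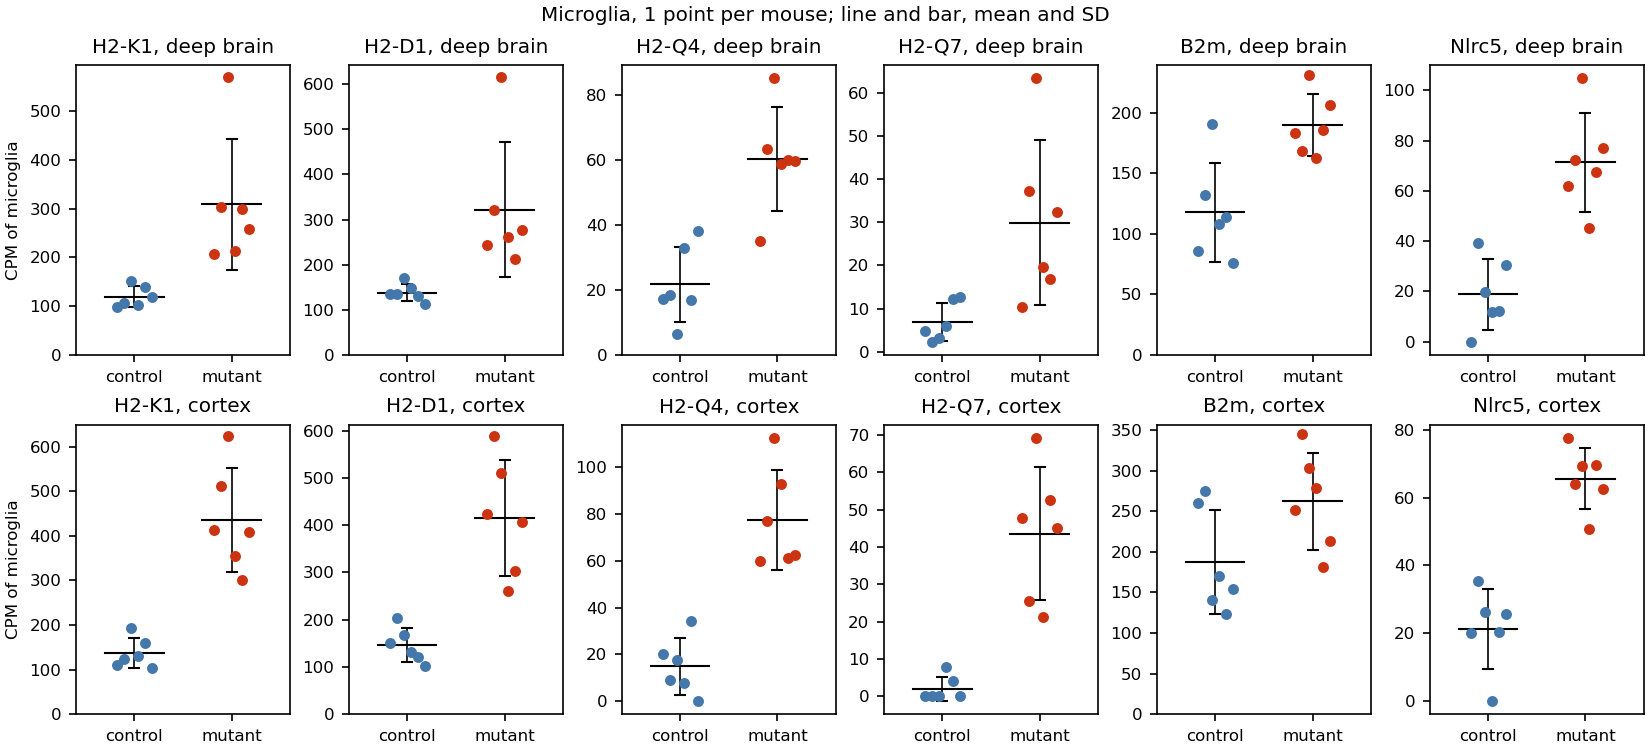
Level (CPM) of *H2-K1*, *H2-D1*, *H2-Q4*, *H2-Q7*, *B2m* and *Nlrc5* in microglia of deep brain (top) and cortex (bottom), 1 point per mouse with the mean and SD of each genotype. Mutant points of *H2-K1* lie at 206 to 570 CPM in deep brain and 302 to 624 CPM in cortex, above the control points at 97.7 to 151 CPM and 103 to 193 CPM.

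Microglia of the cortex, a region without calcifications, showed the same genes apart between genotypes. They comprised 665 mutant and 405 control nuclei, with 18 to 309 nuclei per library. *H2-K1* was at 302, 411 and 624 CPM in mutants and 103, 128 and 193 CPM in controls, a log2 fold change of 1.56 ± 0.20. *H2-D1* was at 262, 416 and 589 CPM against 103, 141 and 204 CPM, a log2 fold change of 1.47 ± 0.21. Neither gene overlapped between groups.

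*H2-Q4*, *H2-Q7* and *Nlrc5* did not overlap either, although their counts were too low for the filter. *Nlrc5* was at 50.6, 66.7 and 77.7 CPM in mutants and 0, 23.0 and 35.5 CPM in controls, from 108 and 21 UMIs. *H2-Q4* was at 59.8, 69.6 and 113 CPM against 0, 13.2 and 34.4 CPM, and *H2-Q7* at 21.1, 46.5 and 69.3 CPM against 0, 0 and 7.73 CPM. The 4 control libraries with no *H2-Q7* UMI allow up to 26.4 to 38.6 CPM, so they do not show that the level was lower than in the lowest mutants. *B2m* overlapped at 181, 265 and 346 CPM against 123, 162 and 275 CPM (0.48 ± 0.22), and *Tapbp* had a log2 fold change of -0.17 ± 0.21. *Tap2* went the other way, at 26.0, 46.1 and 84.0 CPM in mutants and 50.1, 78.0 and 141 CPM in controls, with overlap and too few UMIs for the filter. Of 5 genes through the filter 2 were called, where 0.252% of all genes were called higher and 0.396% had every mutant above every control.

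*Nlrc5* was captured in few microglial nuclei, so nuclei were split by whether they held an *Nlrc5* UMI. In deep brain 19 to 35 nuclei per mutant library and 0 to 12 per control library did. In deep brain neurons, in which the gene is low, 0.135 to 0.635% of nuclei held one at median depths of 6575 to 12296 UMIs, against 0 to 19.3% of microglia at 1895.5 to 2617 UMIs. A nucleus without a UMI is not shown to lack *Nlrc5* RNA.

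Nuclei without an *Nlrc5* UMI were most of each library's microglia, so their values largely repeat those of the whole class. *H2-K1* in these deep brain nuclei was at 202, 275 and 558 CPM in mutants and 97.7, 110 and 151 CPM in controls, and *H2-D1* at 208, 276 and 577 CPM against 111, 135 and 171 CPM. Within mutants, *H2-K1* was higher in nuclei with an *Nlrc5* UMI than without in 5 of 6 deep brain libraries and 5 of 6 cortical ones, and *H2-D1* in 4 of 6 and 4 of 6. Cortical mutant microglia held 108 *Nlrc5* UMIs over all 6 libraries, so the cortical comparisons rest on few nuclei.

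The interferon signalling and response list, a set of 35 genes of which 34 were in the count tables, summed to 1328, 1853 and 4472 CPM in deep brain mutant nuclei with an *Nlrc5* UMI and to 744, 952 and 1030 CPM in those without, higher in 6 of 6 libraries. In deep brain controls the sums were 1102, 2112 and 2751 CPM with and 611, 672 and 817 CPM without, higher in 5 of 5 libraries that held such nuclei. In cortex they were higher in 4 of 6 mutant and 4 of 5 control libraries. These rest on few nuclei, as cortical microglia held 108 *Nlrc5* UMIs in mutants and 21 in controls. Median UMIs per nucleus were 1909 to 2821 with and 1895 to 2584 without in deep brain mutants, and the part of depth in these differences was not tested.

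**Figure D3:**
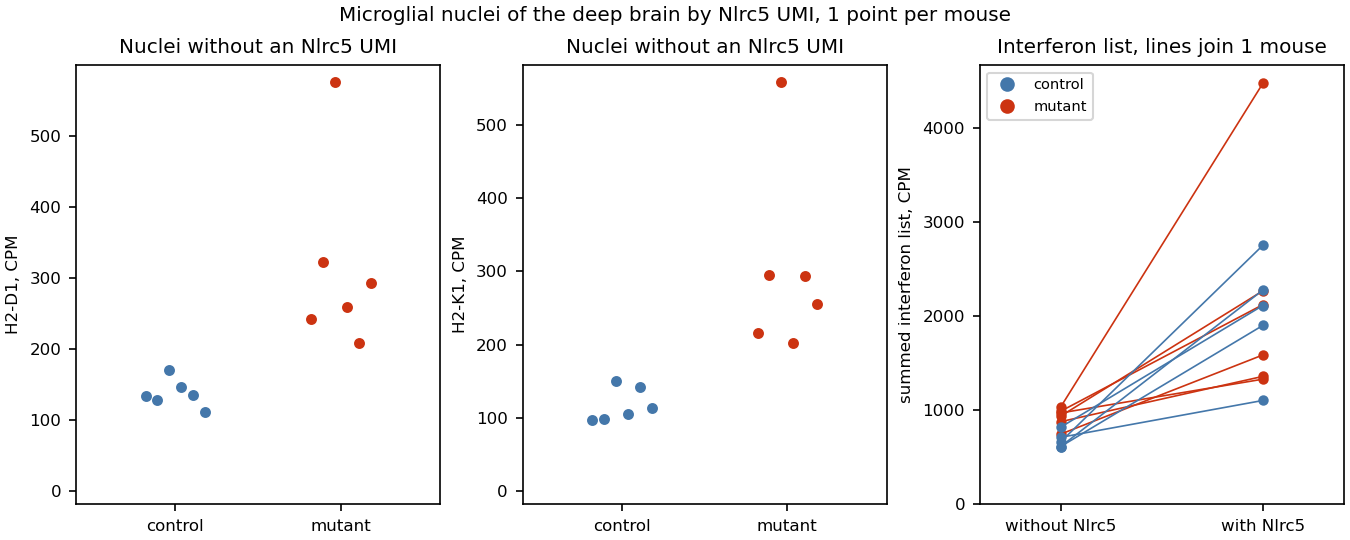
Deep brain microglial nuclei by *Nlrc5* UMI, 1 point per mouse: *H2-D1* and *H2-K1* (CPM) in nuclei without an *Nlrc5* UMI by genotype, and the summed interferon list (CPM) in nuclei without and with one, joined per mouse. Mutant points of *H2-K1* lie at 202 to 558 CPM and control points at 97.7 to 151 CPM, and the joined lines rise in 6 of 6 mutants and 5 of 5 controls.

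Endothelial cells of the deep brain, with 324 mutant and 345 control nuclei, had higher levels of *H2-K1*, *H2-D1* and *H2-Q7* in every mutant than in every control. *H2-K1* was at 857, 1005 and 1272 CPM in mutants and 319, 595 and 763 CPM in controls, a log2 fold change of 0.88 ± 0.20. *H2-D1* was at 921, 1030 and 1278 CPM against 567, 626 and 688 CPM (0.76 ± 0.15). *H2-Q7* was at 109, 150 and 215 CPM against 7.43, 67.1 and 97.3 CPM (1.35 ± 0.35).

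*H2-Q4* was at 196, 256 and 292 CPM in mutants and 44.6, 88.5 and 221 CPM in controls (1.19 ± 0.27), and *B2m* at 314, 569 and 783 CPM against 244, 292 and 369 CPM (0.91 ± 0.20), each with 5 of 6 mutants above every control. *Nlrc5* itself overlapped widely at 32.1, 48.3 and 72.6 CPM against 22.2, 31.9 and 58.4 CPM, from 51 and 30 UMIs, and did not pass the filter. *H2-T23* (0.40 ± 0.23), *Tap2* (0.59 ± 0.25) and *Tapbp* (0.03 ± 0.23) overlapped as well and were not called. Of 8 genes through the filter 5 were called, where 1.06% of endothelial genes were called higher and 0.781% had every mutant above every control. Mural markers in these sums were lower in mutants, at 65.2, 418 and 1278 CPM, than in controls, at 1056, 2238 and 3654 CPM, and their part in the result was not tested. The call for *H2-K1* was lost without mutant 2 (0.81), 3 (0.82) or 4 (0.87) or control 5 (0.80) or 6 (0.75), for *B2m* without mutant 2 (0.78), for *H2-Q4* without mutant 3 (1.13), and for *H2-Q7* without mutant 1 (1.32), 2 (1.22), 3 (1.32), 4 (1.398) or 6 (1.38) or control 1 (1.15), 2 (1.51), 4 (1.33) or 6 (1.12), with RLE size factors (1.34) and with one clustering at resolution 0.5 (1.38).

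In cortical endothelium only 4 mutant and 5 control libraries had enough nuclei. *H2-K1* was at 1142, 1352 and 2187 CPM in mutants and 216, 446 and 866 CPM in controls (1.55 ± 0.39), and *H2-Q7* at 122, 215 and 364 CPM against 0, 17.0 and 92.8 CPM. The 2 control libraries with no *H2-Q7* UMI allow up to 111 and 216 CPM, the second of which is above the lowest mutant. *H2-K1* did not overlap, and 4.84% of cortical endothelial genes tested had every mutant above every control. *H2-D1* had 3 of 4 mutants above every control (1.11 ± 0.36). Neither was called, whereas both were with DESeq2 (1.56 for *H2-K1*), and *H2-K1* also without control 1 (1.82) or 4 (1.44).

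Astrocytes of the deep brain had low class I levels, and *Nlrc5* had the highest log2 fold change of the 7 genes fitted there. *Nlrc5* was at 9.34, 10.5 and 15.5 CPM in mutants and 2.26, 3.85 and 5.57 CPM in controls, a log2 fold change of 1.501 ± 0.21 from 215 and 65 UMIs. *Tap1*, which encodes a subunit of the peptide transporter, was at 8.48, 10.4 and 16.0 CPM against 3.71, 5.74 and 7.97 CPM (0.96 ± 0.22). *H2-D1* was at 26.6, 33.9 and 43.0 CPM against 16.0, 21.0 and 23.9 CPM (0.74 ± 0.14), and *B2m* at 17.9, 20.7 and 24.9 CPM against 11.5, 14.7 and 17.1 CPM (0.52 ± 0.13). These 4 genes did not overlap between genotypes.

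*Tap2* was at 31.1, 42.3 and 52.7 CPM in mutants and 28.0, 29.2 and 33.9 CPM in controls (0.49 ± 0.12), with 5 of 6 mutants above every control. Its call was lost without mutant 1 (0.47), 2 (0.45) or 3 (0.41) or control 1 (0.47), 2 (0.48) or 5 (0.47), that of *B2m* without mutant 2 (0.51) or 3 (0.49) or control 2 (0.50) or 5 (0.44) and with mice blocked by matched age (0.52), and that of *Tap1* without mutant 3 (0.83). *H2-K1* differed less in these cells, at 53.2, 67.8 and 72.1 CPM against 45.3, 54.4 and 60.9 CPM (0.30 ± 0.10), and was called only without mutant 4 (0.37) among the alternatives run. Of 7 genes through the filter 5 were called, where 3.12% of astrocyte genes were called higher and 1.6% had every mutant above every control. OPC markers in the astrocyte sums were higher in mutants, at 267 to 436 CPM against 160 to 297 CPM, and microglial markers were similar at 69.7 to 99.9 and 64.1 to 94.0 CPM; the part of either in the result was not tested. In cortical astrocytes *Nlrc5* was at 6.05, 9.07 and 17.5 CPM against 0, 1.51 and 6.92 CPM, with 5 of 6 mutants above every control. The 3 control libraries with no *Nlrc5* UMI allow up to 7.09 to 9.79 CPM, so they do not show a lower level than in the lowest mutants.

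Oligodendrocytes of the deep brain differed mainly in *Nlrc5*. It was at 3.46, 4.98 and 7.52 CPM in mutants and 0.992, 1.41 and 2.59 CPM in controls, a log2 fold change of 1.77 ± 0.28 without overlap, from 233 and 72 UMIs. *H2-D1* overlapped at 14.4, 24.3 and 61.9 CPM against 12.7, 16.7 and 22.0 CPM (0.92 ± 0.30). *Nlrc5* was the 1 gene called of 7, where 1.01% of oligodendrocyte genes were called higher and 0.873% had every mutant above every control. T cell markers in these sums were 2.22 to 5.26 CPM in mutants and 1.30 to 3.10 CPM in controls, and their part in the result was not tested; in T cells themselves the same markers summed to 3454 to 8052 CPM.

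In cortical oligodendrocytes *H2-D1* was at 37.1, 66.6 and 97.8 CPM in mutants and 16.5, 24.9 and 33.5 CPM in controls, a log2 fold change of 1.47 ± 0.25 without overlap. It was called, as were 0.705% of all genes in the same direction, and the share with every mutant above every control was also 0.705%. *Nlrc5* was at 6.89, 14.1 and 30.2 CPM against 0, 2.38 and 6.44 CPM, again without overlap, from 215 and 19 UMIs that did not pass the filter. *B2m* (0.80 ± 0.27) and *H2-K1* (0.77 ± 0.27) overlapped and were not called. With mice blocked by matched age both were called (0.87 and 0.86), and with mice blocked by number *B2m* was (0.76). T cell markers were not higher in mutants there, at 1.92 to 6.19 CPM against 3.87 to 8.61 CPM.

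**Figure D4:**
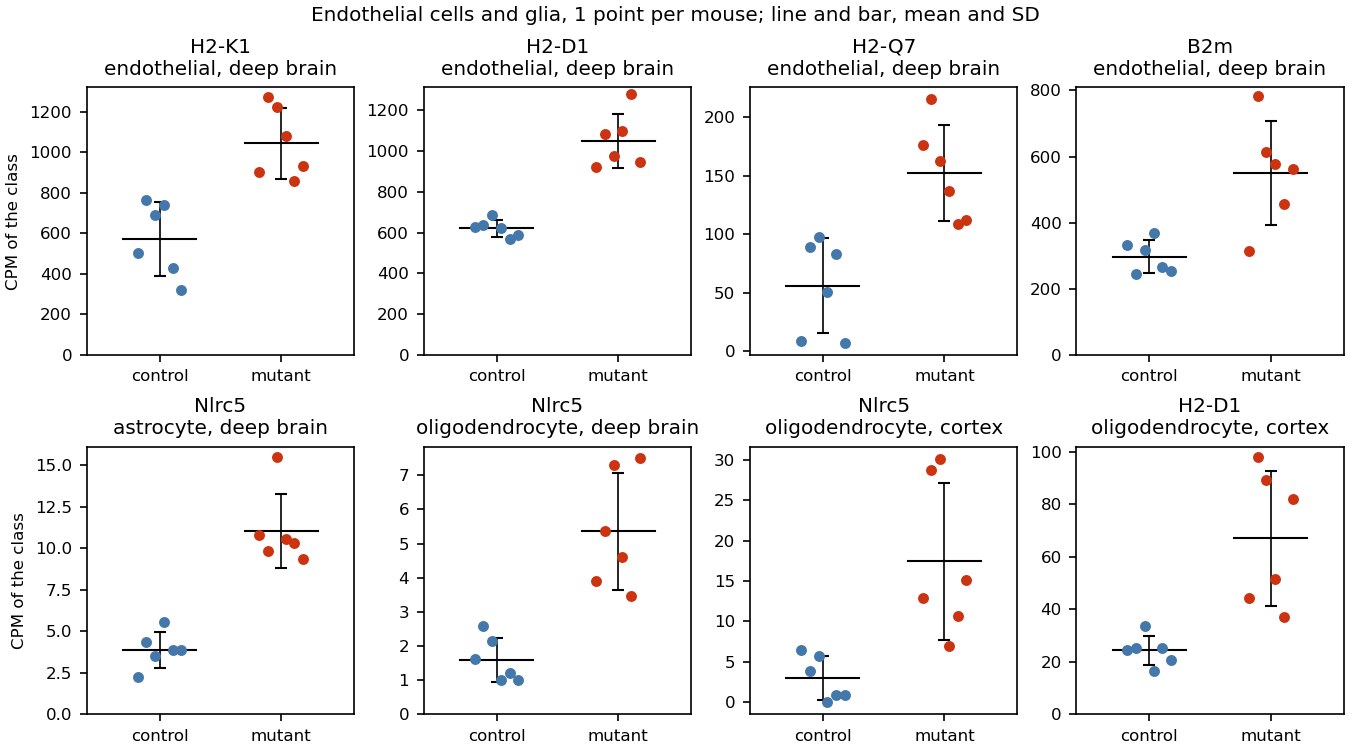
Level (CPM) of *H2-K1*, *H2-D1*, *H2-Q7* and *B2m* in deep brain endothelial cells, of *Nlrc5* in deep brain astrocytes and in oligodendrocytes of both regions, and of *H2-D1* in cortical oligodendrocytes, 1 point per mouse with the mean and SD of each genotype. *Nlrc5* in astrocytes lies at 9.34 to 15.5 CPM in mutants and 2.26 to 5.57 CPM in controls.

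Neurons, the class with the most nuclei, had the lowest control mean CPM of *H2-K1*, *H2-Q4*, *B2m* and *Nlrc5* in deep brain. In deep brain *H2-K1* was at 1.96, 2.70 and 3.91 CPM in mutants and 1.31, 1.98 and 2.27 CPM in controls (0.58 ± 0.17), with 5 of 6 mutants above every control and a call with DESeq2 alone. *H2-Q4* was at 0.354, 0.399 and 0.486 CPM against 0.127, 0.243 and 0.349 CPM (0.75 ± 0.21) without overlap, where 0.401% of neuronal genes had every mutant above every control. *H2-D1* and *Nlrc5* overlapped, at 15.1, 22.2 and 24.9 CPM against 16.3, 19.0 and 27.1 CPM (0.06 ± 0.13) and with a log2 fold change of 0.24 ± 0.28. In cortical neurons *Tapbp* was lower in every mutant, at 4.71, 5.25 and 5.97 CPM against 6.44, 7.86 and 9.47 CPM (-0.53 ± 0.12) and called with DESeq2 alone, where 0.291% of genes had every mutant below every control. In OPC the 5 genes through the deep brain filter had log2 fold changes of 0.09 to 0.31, all within overlapping groups.

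T cells were few, with 96 mutant and 30 control nuclei in deep brain. The 6 mutant libraries used held 96 of them and the 4 control libraries used held 29. *H2-D1* was at 1472, 1645 and 2183 CPM in mutants and 1084, 1126 and 1210 CPM in controls (0.52 ± 0.23), and *H2-Q7* at 1115, 1311 and 1476 CPM against 722, 787 and 1067 CPM (0.58 ± 0.25), both without overlap, where 2.58% of T cell genes had every mutant above every control. *H2-K1* overlapped at 1553, 2172 and 3221 CPM against 1343, 2164 and 2824 CPM (0.03 ± 0.25). In deep brain macrophages *H2-K1* overlapped at 390, 526 and 982 CPM against 422, 550 and 700 CPM, and *Nlrc5* at 94.8, 227 and 307 CPM against 0, 83.6 and 262 CPM.

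Across all deep brain classes, 59 member and class pairs passed the filter. Their log2 fold change was positive in 56, with a median of 0.43 against -0.002 for all genes tested, and 15 were called, where 0.739% of all gene and class pairs were called higher in mutants. In cortex 19 of 27 pairs were positive with a median of 0.24 against -0.002, and 3 were called, where 0.384% of all pairs were. Deep brain and cortex came from the same mice, and the pairs of a region share mice and genes. Since the members were selected from earlier results of these libraries, nothing is read from these counts and medians.

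**Figure D5:**
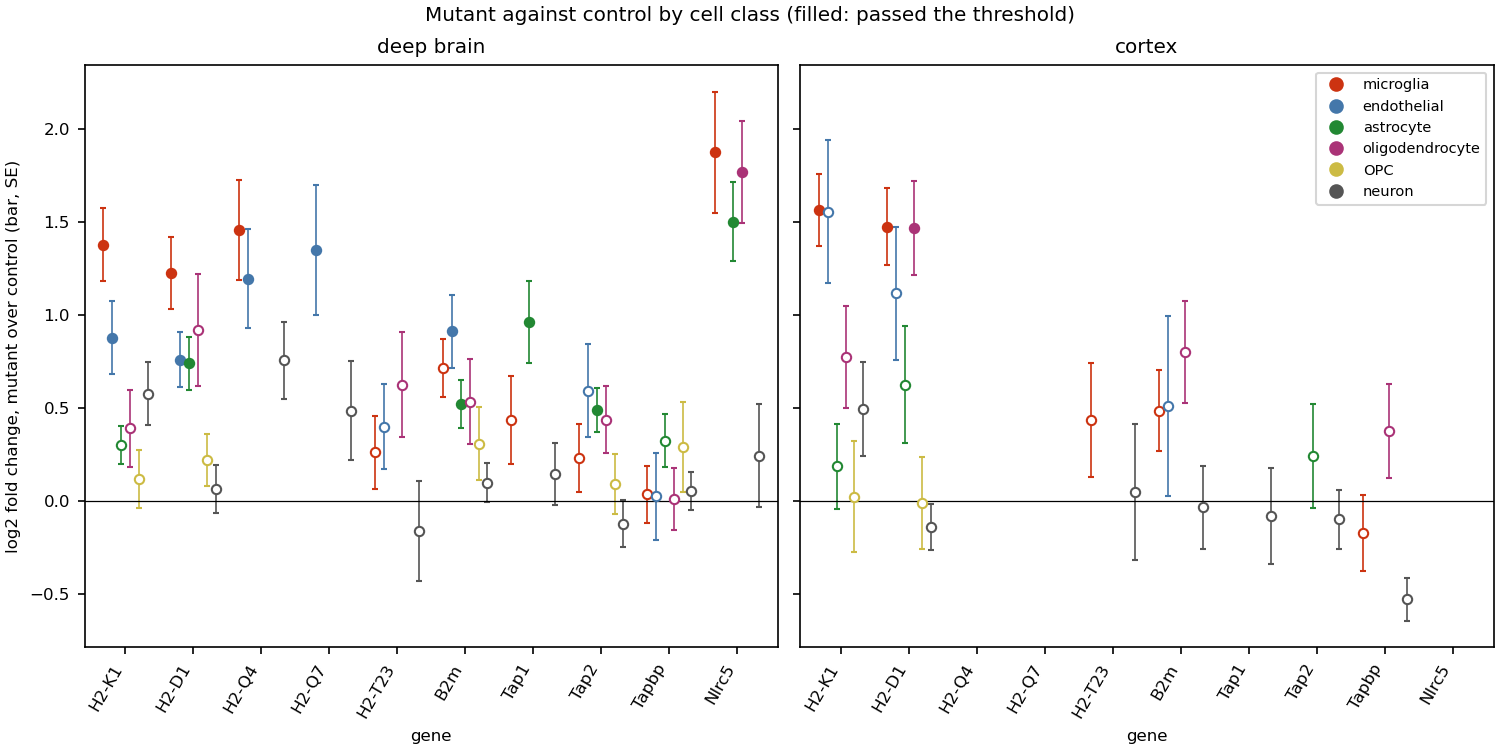
Log2 fold change of mutant over control with its SE for each gene through the filter in 6 cell classes of deep brain and cortex, filled where the adjusted p was under 0.05. The deep brain values run from -0.16 for *H2-T23* in neurons to 1.87 for *Nlrc5* in microglia.

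The regions were compared within control mice. Of 43 pairs, 35 had a lower level in deep brain than in cortex, and 6 were called, a lower share than the 17% of all gene and class pairs called in either direction. *B2m* was lower in deep brain in neurons (-1.17 ± 0.15), OPC (-1.04 ± 0.25) and oligodendrocytes (-0.96 ± 0.20), and *H2-T23* in neurons (-1.08 ± 0.16). *H2-D1* was higher in deep brain neurons (0.38 ± 0.09) and lower in deep brain oligodendrocytes (-0.56 ± 0.14). In control neurons *B2m* was at 6.64 to 14.0 CPM in cortex and 4.50 to 5.38 CPM in deep brain, without overlap. *H2-T23* was at 2.84 to 14.9 and 1.95 to 6.55 CPM, with overlap. The neurons of the 2 regions include different types, and cortical libraries varied in quality. The part of neuron type and library quality in these differences was not tested.

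Whether the genotype difference itself differed between regions was fitted for 54 pairs, of which 27 were positive (larger in deep brain). In microglia the difference of log2 fold changes was -0.30 ± 0.21 for *H2-K1*, -0.35 ± 0.21 for *H2-D1* and 0.33 ± 0.49 for *Nlrc5*. The microglial values furthest from 0 were 0.99 ± 0.33 for *Tap2* and -2.19 ± 0.91 for *H2-Q7*, neither of them called. The 1 pair called was *Tapbp* in neurons, at 0.59 ± 0.11, where 0.102% of all pairs were called in either direction.

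Tests were run on 6 lists of 85 other genes: class I processing, other class I heavy chains, promoter factors, interferon signalling and response, class II presentation and receptors for class I (*H2-K2*, *H2-T10* and *Mx1* were not matched). The lists and tests were chosen with earlier results of these data known, and the adjusted p-values do not account for that choice. In deep brain 16 of 333 gene and class pairs passed the edgeR quasi-likelihood test at an adjusted p under 0.05, 15 higher and 1 lower in mutants. Of all deep brain gene and class pairs, 0.739% were called higher in mutants. An unadjusted p under 0.05 was found for 77 of the 333. In astrocytes 8 of 23 genes of the interferon list rose and 0 fell, with a median log2 fold change of 0.64. Of all 12780 astrocyte genes tested, 3.12% were called higher in mutants, with a median log2 fold change of -0.003. Astrocytes had the most called genes of the deep brain classes, 641. *Ddx60*, an interferon-induced helicase-like gene, was at 8.43, 21.6 and 30.1 CPM in mutants and 3.62, 5.40 and 10.5 CPM in controls (log2 fold change 1.75 ± 0.29, edgeR adjusted p = 0.00237). *Oasl2*, of the oligoadenylate synthetase family, was at 4.65, 9.62 and 17.1 CPM against 1.09, 2.67 and 4.51 CPM without overlap (1.85 ± 0.37, edgeR adjusted p = 0.00644).

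Other genes of the interferon list rose in the same cells. *Irf9*, a subunit of the complex that binds interferon-stimulated response elements, rose by a log2 fold change of 0.69 ± 0.17 (edgeR adjusted p = 0.0277). *Parp14* (1.56 ± 0.37, edgeR adjusted p = 0.0203), *Xaf1* (1.23 ± 0.31, 0.0306), *Gbp7* (0.75 ± 0.19, 0.0319) and *Irgm1* (0.65 ± 0.17, 0.0355) rose as well. Of the other class I heavy chains, *H2-T22* rose in astrocytes (0.55 ± 0.14, edgeR adjusted p = 0.0282). The processing list, with *Psmb8*, *Psmb9* and the other proteasome and chaperone genes, had 0 of 8 genes past the edgeR threshold in astrocytes, with 2 at an unadjusted p under 0.05.

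In deep brain oligodendrocytes 4 of 42 listed genes passed, where 1.01% of all oligodendrocyte genes were called higher in mutants. *H2-T22* was at 3.79, 6.73 and 7.67 CPM in mutants and 2.97, 3.27 and 3.99 CPM in controls (0.90 ± 0.17, edgeR adjusted p = 0.0156), *Bst2* (tetherin) had a log2 fold change of 1.19 ± 0.26 (edgeR adjusted p = 0.0364), *Irf9* of 0.92 ± 0.21 (0.0417) and *Irf2* of 0.29 ± 0.07 (0.0438). In OPC *Ddx60* was at 16.4, 25.2 and 40.5 CPM against 5.96, 7.83 and 9.86 CPM without overlap (1.74 ± 0.22, edgeR adjusted p = 0.000147). In endothelial cells *H2-Q6*, a class Ib heavy chain that shares sequence windows with *H2-Q7* and *H2-Q4*, was at 109, 147 and 225 CPM against 7.43, 23.0 and 104 CPM without overlap (1.78 ± 0.38, edgeR adjusted p = 0.0155). The 1 gene that fell was *Herc6* in neurons, at 5.85, 6.65 and 10.4 CPM against 11.4, 15.4 and 21.8 CPM (-1.14 ± 0.19, edgeR adjusted p = 0.0282). Within the largest neuronal cluster alone its log2 fold change was -0.26 and did not pass. Of these 16 calls 11 were lost in at least 1 alternative, among them single libraries left out, and *Ddx60* in both classes, *Oasl2*, *H2-Q6* and *H2-T22* in oligodendrocytes passed in every alternative run. With mice blocked by matched age, *Gbp7* (0.76) and *H2-T22* (0.53) in astrocytes and *Irf2* (0.29), *Bst2* (1.16) and *Irf9* (0.89) in oligodendrocytes did not pass. The count of 16 became 10 without mutant 1, 7 without mutant 2, 5 without mutant 3 and 7 without control 5.

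In deep brain microglia 0 of 40 genes of the same lists passed edgeR, with 14 at an unadjusted p under 0.05, and 0 passed DESeq2, with 12 at an unadjusted p under 0.05. The largest differences were *H2-M3* (log2 fold change 0.92, edgeR adjusted p = 0.121), *Stat2* (0.75, 0.353) and *Xaf1* (0.72, 0.464). In cortical microglia 0 of 19 passed edgeR, with 6 at an unadjusted p under 0.05, and 2 passed DESeq2. *Rnf213* had a log2 fold change of 1.17 (edgeR adjusted p = 0.0828) and *Herc6* of 0.94 (0.0828). Over all cortical classes 0 of 144 pairs passed edgeR, with 20 at an unadjusted p under 0.05, and 4 passed DESeq2. With mice blocked by replicate number 8 of them passed, and with mice blocked by matched age 6. The genotype difference was not shown to differ between regions for any of 311 pairs by edgeR, with 19 at an unadjusted p under 0.05, and 2 passed DESeq2. Between regions of control mice 27 of 243 pairs passed edgeR, 14 higher and 13 lower in deep brain, a lower share than the 17% of all gene and class pairs.

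Of the genes whose level moved most like *Nlrc5* over the 12 deep brain microglial libraries, *Sp100* had a Pearson correlation of 0.92 on the log2(CPM + 10) scale, *Zcwpw2* of 0.90 and *Lilrb4a* of 0.88, among 10204 genes, and *H2-K1* came in place 7 with 0.83. For *H2-K1* the nearest were *H2-D1* at 0.94 and *Cd74*, the class II invariant chain, at 0.92. Over 20 cell class and region means, *Nlrc5* was most like *Slfn2* (0.96), *Tap1* (0.96) and *AI467606* (0.95), and among the genes most like *H2-K1* were *H2-Q4* (0.96) and *H2-D1* (0.96). These points share libraries, genotype and depth, so the correlations are descriptions.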

How the data were processed

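Nuclei from 12 mice were sequenced with 10x 5′ chemistry. The authors aligned reads to mm10 and counted UMIs with Cell Ranger 5.0.1, introns included, after bcl2fastq 2.20.0.422, and deposited raw counts per nucleus. Nuclei with over 500 and under 7000 genes and under 20% mitochondrial UMIs were kept, clustered per region in Seurat 5.3.0 (2000 variable genes without the members and lists, 20 components, resolutions 0.01, 0.1 and 0.3) and named by fixed markers, with naming thresholds set after the clusters were seen. A microglial nucleus holding any UMI of *Rbfox3*, *Aqp4*, *Mbp* or *Mrc1* was removed. Counts were summed per library and class. A library entered with at least 5 nuclei and a class with at least 4 libraries of each genotype. Sums were fitted with edgeR 4.0.16 (filterByExpr, TMM, quasi-likelihood test, Benjamini-Hochberg adjustment over all genes of a fit, threshold 0.05). Regions of control mice were compared with the mouse as a block. DESeq2 1.42.0 was an alternative.

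The members, lists and tests were chosen with earlier results of these data known. Named were all 10 members, each listed gene that passed a genotype fit, otherwise at most 3 per fit with the largest change, and the 3 genes most like *Nlrc5* and *H2-K1*. Some genes that this rule names are not reported here. Doublets were handled by leaving out clusters of mixed markers. Scrublet, an alternative, marked 3.95 to 7.58% of nuclei per deep brain library but did not work in cortex, where it marked up to 46.7%. Counting limits assume 3 UMIs for a count of 0 and cover counting error only. On counts simulated for deep brain microglia (7300 genes), edgeR recovered 174 of 200 genes changed by a log2 value of 1, with 9 false calls. Same-numbered mice of the 2 genotypes deviated together with a correlation over 0.1 in every pair (0.12 to 0.68) in cortical neurons and in no other class checked. By the labels, mice 1 to 4 have the same age in both genotypes, and no shared litter or day is given.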

Additional observations from a re-analysis of the deposited data

Results flagged for a closer look

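In 82 groups of libraries tested for a value far from the rest, 6 held one, and chance alone flags about 1 in 20 groups. Mutant 3 accounted for 4 of them. Its deep brain microglia had 570 CPM of *H2-K1* (234 UMIs) with the next mutant at 304 CPM, and 617 CPM of *H2-D1* (253 UMIs) with the next at 322 CPM. Its deep brain astrocytes had 15.5 CPM of *Nlrc5* (54 UMIs) with the next at 10.8 CPM, and its cortical astrocytes 87.5 CPM of *H2-D1* (20 UMIs) with the next at 36.7 CPM. Control 3 had 27.1 CPM of *H2-D1* in deep brain neurons (1321 UMIs) with the next control at 20.0 CPM. Mutant 5 had 2180 CPM of *H2-D1* in deep brain T cells (47 UMIs) with the next mutant at 1703 CPM.

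The genotype difference of *Tapbp* in neurons differed between regions, by 0.593 on the log2 scale (SE 0.109), the 1 member called in that fit. It is given as a description, since the members were selected from earlier results of these libraries. Its level was lower in every cortical mutant than in every cortical control and overlapped in deep brain.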

How the results depend on the processing

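No called fold change of a member or of a listed gene changed its direction under any alternative run, and of the member calls 11 of 18 passed in all of them. The count of listed gene and class pairs past the threshold in deep brain was 16. It was 37 with no filter beyond 1 UMI, 20 with DESeq2 and 12 with an age-matched block, and 5 to 19 with 1 library left out. In cortex it was 0 and became 4 with DESeq2, 18 with no filter, 1 with Scrublet doublets removed, 6 with microglial contaminants kept, 6 with the age-matched block, and 0 to 2 with 1 library left out. Between regions of control mice it was 27 and became 41 with the largest neuronal cluster only, and 17 to 25 with 1 mouse left out, the lowest without control 2. For the difference between regions it was 0 and became 2 with DESeq2, 1 with RLE size factors, 1 with no filter and 1 with Scrublet doublets removed, and 0 to 2 with 1 library left out. The cause of these shifts was not tested.

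With the replicate block, which pairs same-numbered mice, the count was 15 in deep brain and 8 in cortex, and without the mouse as a replicate block the count between regions was 21. The deviations of same-numbered mice correlated at -0.14 to 0.11 in deep brain microglia, -0.18 to 0.26 in deep brain neurons, 0.05 to 0.30 in cortical microglia and 0.01 to 0.48 in cortical oligodendrocytes, positive but not over 0.1 in every pair in the last 2. Same-numbered mice 1 to 4 share their labelled age, and a further link is not given. The largest neuronal cluster was added after seeing the data. Depth limits the cortex: 4 control libraries had no *H2-Q7* UMI in microglia, and *Nlrc5* there rested on 21 control UMIs.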
